A study of Mus musculus with 2 samples.

Results

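NANOG summits in gene deserts are described here, meaning summits outside every protein-coding gene and more than 100 kb from the nearest protein-coding transcription start site (TSS). The rule was applied to the authors' optimal set of reproducible peaks on mouse build mm10, on chromosomes 1 to 19 and X. It selected 3118 of 15852 peaks, with 3113 different pairs of start and end, because 10 of the peaks share both with another summit. Regions that differ in start or end can still overlap, so a strong peak and a weak summit beside it may count separately. The rule used position only, so signal and replicate support were free to vary.

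The peaks come from ChIP-seq, the sequencing of DNA recovered by immunoprecipitation of cross-linked chromatin, for NANOG in E14TG2a.4. This is a male embryonic stem (ES) cell line of mouse strain 129/Ola. There was a single group of 2 biological replicates with an anti-NANOG antibody, an embryonic stage and a labelled age of 3.5 day, with no treatment, allele or time course to compare. Both replicates come from the same established line and the same donor entry, so they do not sample different animals. The lists hold binding sites and no transcripts, so the cell type could not be checked against expressed markers.

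NANOG is a homeodomain transcription factor that helps to hold ES cells in the pluripotent state, and it often binds beside OCT4, SOX2 and ESRRB. Gene deserts are long stretches without protein-coding genes. Deserts beside genes that direct embryonic development are known to hold distal enhancers, which can contact a promoter across large distances, while other deserts have no known regulatory role.

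Sequences of 9 strong desert sites are shown first, to give the letters that lie under the peak centres. They were read from the mm9 reference genome, since the mm9 peak list is the one that shares a build with the sequence used here, and they run 5′ to 3′ on the plus strand for 100 bp to each side of the centre. Capitals mark exact matches, on either strand, to 6 short motifs. The motifs were the OCT octamer ATGCAAAT, the SOX site CATTGTT, the NANOG site GCCATTA, the ESRRB site CAAGGTCA, the KLF site GGGTGTGG and the TCF and LEF site CTTTGAT. The first site, between Phkb and Abcc12 at chr8:88917737-88917937, is shown because its region is the highest desert peak. It holds an ESRRB site on the minus strand at base 124 of the window. The second, between Ednra and Ttc29 at chr8:80592332-80592532, is shown as a strong site without any of the motifs. The third, between Dbc1 (Brinp1 in the mm10 annotation) and Cdk5rap2 at chr4:69553896-69554096, holds an ESRRB site at base 13 and an OCT octamer on the minus strand at base 149.
Phkb-Abcc12: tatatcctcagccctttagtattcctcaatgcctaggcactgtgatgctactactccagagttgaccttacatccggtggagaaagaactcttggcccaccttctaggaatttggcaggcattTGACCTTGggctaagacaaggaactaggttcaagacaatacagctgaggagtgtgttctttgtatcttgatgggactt
Ednra-Ttc29: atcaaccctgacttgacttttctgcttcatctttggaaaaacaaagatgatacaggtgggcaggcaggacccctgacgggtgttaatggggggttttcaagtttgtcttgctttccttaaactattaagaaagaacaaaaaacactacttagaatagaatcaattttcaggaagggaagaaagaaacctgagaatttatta
Dbc1-Cdk5rap2: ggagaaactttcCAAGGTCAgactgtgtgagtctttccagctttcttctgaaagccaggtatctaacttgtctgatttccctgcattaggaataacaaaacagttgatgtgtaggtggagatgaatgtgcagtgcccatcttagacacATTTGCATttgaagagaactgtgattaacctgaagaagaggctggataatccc

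The next group shows remote sites and sites beside developmental genes. The Ncam2-Mrpl39 site at chr16:82602406-82602606 lay 1402 kb from the nearest TSS and holds an OCT octamer on the minus strand at base 8 and a TCF and LEF site at base 70. The Celf2-Gata3 site at chr2:9367593-9367793 holds a TCF and LEF site on the minus strand at base 34 and a SOX site at base 75. The Irx2-Irx4 site at chr13:73236939-73237139 holds the same pair of motifs at bases 100 and 168, with the SOX site on the minus strand. The Nmbr-Cited2 site at chr10:17342675-17342875 holds a NANOG site at base 54.
Ncam2-Mrpl39: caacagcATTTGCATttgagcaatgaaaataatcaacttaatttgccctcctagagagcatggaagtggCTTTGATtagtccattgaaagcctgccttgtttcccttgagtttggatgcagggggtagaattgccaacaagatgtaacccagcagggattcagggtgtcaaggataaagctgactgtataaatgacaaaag
Celf2-Gata3: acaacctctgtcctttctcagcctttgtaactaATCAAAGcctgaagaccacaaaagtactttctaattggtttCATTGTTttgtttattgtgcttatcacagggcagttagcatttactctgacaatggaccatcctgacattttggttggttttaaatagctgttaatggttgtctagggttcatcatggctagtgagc
Irx2-Irx4: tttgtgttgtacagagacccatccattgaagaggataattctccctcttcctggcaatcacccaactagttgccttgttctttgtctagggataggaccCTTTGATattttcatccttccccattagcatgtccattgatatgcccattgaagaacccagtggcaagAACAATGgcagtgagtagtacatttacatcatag
Nmbr-Cited2: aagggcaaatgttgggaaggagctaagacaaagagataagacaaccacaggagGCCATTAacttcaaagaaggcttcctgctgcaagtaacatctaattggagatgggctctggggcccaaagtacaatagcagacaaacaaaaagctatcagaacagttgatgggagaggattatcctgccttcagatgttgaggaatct

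The last pair shows the site with the most matches among these 9 and a site downstream of Sox2. The Plekhb2-Hs6st1 window at chr1:35172457-35172657 holds 3 SOX sites, at bases 2, 75 and 191, and a NANOG site at base 88, inside a stretch that repeats short words. The Sox2-Atp11b window at chr3:34656885-34657085 holds a SOX site at base 114. Windows of the neighbouring peaks, at chr3:34655671-34655871 and chr3:34660167-34660367, hold none of the motifs. These windows were chosen after their matches were seen, and a match is a description of letters, not evidence of a bound site. Some strong windows that are not shown share long, nearly identical stretches. Examples are Ahr-Agr3 with Dok5-Cbln4 and Dsel-Cntnap5a with Xkr4-Rp1. The part of repeated sequence in their signal was not tested.
Plekhb2-Hs6st1: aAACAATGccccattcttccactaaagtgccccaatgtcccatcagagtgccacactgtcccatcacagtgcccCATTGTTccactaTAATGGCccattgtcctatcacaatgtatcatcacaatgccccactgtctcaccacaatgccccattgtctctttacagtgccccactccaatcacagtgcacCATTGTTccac
Sox2-Atp11b: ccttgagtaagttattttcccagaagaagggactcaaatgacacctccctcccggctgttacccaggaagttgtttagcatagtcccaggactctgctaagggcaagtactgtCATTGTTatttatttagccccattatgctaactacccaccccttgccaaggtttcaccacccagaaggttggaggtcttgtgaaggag

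The desert label was checked against gene bodies as well as start sites. Of the 3118 peaks, 2570 (82.4%) lay more than 100 kb from every protein-coding gene body. The remaining 548 lay near the 3′ ends of genes, 265 of them within 50 kb of a gene body and 63 within 10 kb. The peak of signal 428 between Negr1, a neuronal adhesion gene, and Zranb2 is such a case, at 4.81 kb from a gene body and 213 kb from the nearest TSS. For these peaks "far from a TSS" holds, while "far from a gene" does not. Just inside the limit, 5 peaks lay at 100.1 to 100.3 kb with signals of 17.1 to 297, and just outside it 5 peaks lay at 99.6 to 99.9 kb with signals of 16.6 to 65.5.

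The distance from a desert summit to the nearest TSS had a median of 247 kb, with quartiles of 157 and 445 kb. The 100 to 250 kb range held 1581 peaks, 250 to 500 kb held 873, 500 to 1000 kb held 477, and 187 peaks lay beyond 1000 kb. The most remote summit, between the protocadherin genes Pcdh20 and Pcdh9, lay 2662 kb from the nearest TSS with a signal of 44.1, and it was absent from the conservative set. Desert peaks were named nearest to 1309 different genes, and of the 3092 peaks with an assigned side 1696 (54.9%) lay upstream of that gene, against 1396 downstream. The other 26 had no assigned side. The rule leaves out gene bodies, which lie downstream of a TSS, and the split of eligible sequence by side is not given here. The upstream share is therefore a description and not a result about the peaks.

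Deserts held fewer peaks than their length alone would give. Positions that meet the rule made up 803 Mb, or 31.3% of the 2566 Mb between the first and the last coding genes of the chromosomes. Desert peaks occurred at 3.88 per Mb of eligible sequence, against 7.22 other peaks per Mb of the remaining sequence, a ratio of 0.537. Of all optimal peaks 19.7% were desert peaks, against 20.1% of the bottom 100000 regions in the authors' relaxed list for the pool, which are mostly background. That difference did not pass Fisher's exact test (two-sided, odds ratio 0.971, 95% interval 0.931 to 1.01, p = 0.172). The outcome turned with the regions compared. Fisher's exact test called an excess against the middle of the relaxed list (odds ratio 1.08, p = 0.000763), and a deficit for the conservative set (0.931, p = 0.00894) and for the top regions of replicate 2 alone (0.823, p = 1.48e-18). Peaks are not independent replicates of an experiment, so this p-value and those below cover counting error across peaks of a single pair of libraries. On the X chromosome 104 desert peaks gave 1.71 per eligible Mb, while the autosomes ranged from 3.34 on chromosome 16 to 5.93 on chromosome 13. A male line carries a single X chromosome, and the part of copy number in this value was not tested.

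Peak strength in deserts was close to that elsewhere. The authors' signal, whose scale is not stated, had a median of 41.2 (quartiles 27.7 and 69.7) in desert peaks. The median was 39.9 in all other peaks and 40.8 in intergenic peaks 10 to 100 kb from a TSS. The share above the median of the optimal set was 51.5% for desert peaks (1607 of 3118) and 49.6% for all other peaks, beside 50% of the whole set by construction. Fisher's exact test (two-sided, Benjamini-Hochberg over 6 tests) did not call this difference, with an odds ratio of 1.08, a 95% interval of 0.998 to 1.17 and an adjusted p of 0.0692. Against the intergenic peaks, 50.8% of which were above the median, the odds ratio was 1.03 (95% interval 0.936 to 1.13, adjusted p = 0.563, same Fisher's exact test). The replicates differed here too. With replicate 1 signal alone, both comparisons were called by Fisher's exact test (odds ratios 1.19 and 1.13, adjusted p = 8.57e-05 and 0.0158), and with replicate 2 signal alone both turned to the other side of 1 without a call (0.972 and 0.901).

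Very strong sites made up similar shares of both classes. A signal of at least 200 was reached by 111 desert peaks (3.56%) and by 451 other peaks (3.54%), beside 3.55% of the whole set. By distance, the median signal of desert peaks was 40.7 at 100 to 250 kb, 41.0 at 250 to 500 kb, 41.1 at 500 to 1000 kb and 47.4 beyond 1000 kb. The highest desert signal was 485 and the highest signal of the other peaks was 676.

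The 20 strongest desert peaks were all in the conservative set, the authors' stricter list, and all were among the 15891 highest regions of both replicates. Their signals ran from 325 to 485 in the optimal set, from 232 to 327 in the replicate 1 list and from 83.1 to 196 in the replicate 2 list. Each of them had a higher value in replicate 1 than in replicate 2, and the worst rank among them was 133 in replicate 1 and 215 in replicate 2. The lists were scaled by the authors, so ranks are compared between them rather than signals.

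**Figure D1:**
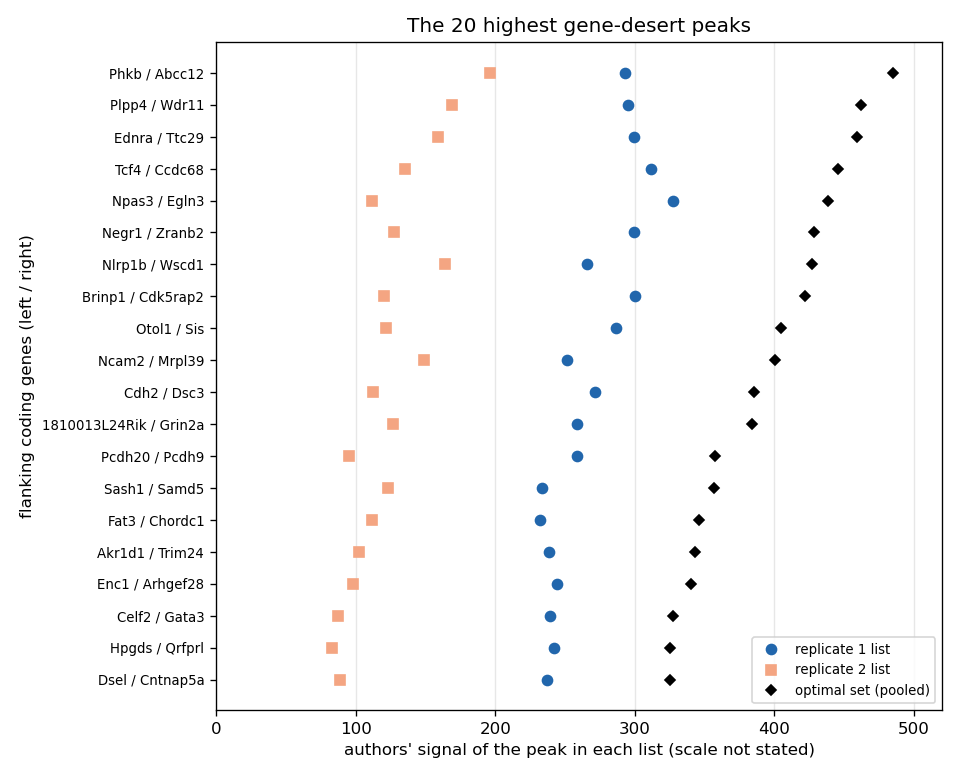
Signal (horizontal axis, scale not stated) of the 20 highest desert peaks in the replicate 1 list, the replicate 2 list and the optimal set, with the flanking coding genes on the vertical axis. Replicate 2 values (83.1 to 196) lie below replicate 1 values (232 to 327) for all 20 peaks.

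The first of them, at chr8:86393834-86394232 between Phkb, a phosphorylase kinase subunit, and the transporter gene Abcc12, had a signal of 293 in replicate 1 and 196 in replicate 2 and ranked 13th in the optimal set. It ranked 33rd in replicate 1 and 8th in replicate 2. The second, at chr7:129429903-129430271 between the phospholipid phosphatase gene Plpp4 and Wdr11, had 295 and 169 in replicates 1 and 2. The third, at chr8:78068238-78068670 between Ednra, the endothelin receptor A gene, and Ttc29, had 299 and 159. All 3 lay 145 to 187 kb from a TSS, and none of their border genes is on the list of developmental regulators.

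Of these 20 peaks, 3 had a listed developmental regulator at a border, beside 17.1% of all desert peaks between coding genes. They lay beside Tcf4 (signal 445, replicates 312 and 135), a basic helix-loop-helix factor, beside Npas3 (438, replicates 327 and 112), a neuronal transcription factor, and beside Gata3 (327, replicates 239 and 87.6), a zinc finger factor of the T cell, inner ear and kidney lineages. A listed neuronal adhesion or synapse gene stood at a border of 6 of the 20, beside 16.5% of those desert peaks. The most remote of these lay 1402 kb from the TSS of the neural adhesion gene Ncam2 (signal 401, replicates 251 and 149) in an interval of 3094 kb that ends at Mrpl39. Another lay 803 kb from the TSS of Cdh2, which encodes N-cadherin, with a signal of 386 and replicate values of 272 and 113. The other named pairs were Nlrp1b and Wscd1 (427), Brinp1 and Cdk5rap2 (422), Otol1 and Sis (405), 1810013L24Rik and Grin2a (384), Pcdh20 and Pcdh9 (357), Sash1 and Samd5 (357), Fat3 and Chordc1 (346), Akr1d1 and Trim24 (343), Enc1 and Arhgef28 (340.3), Hpgds and Qrfprl (325), and Dsel and Cntnap5a (325).

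More than 500 kb from a TSS lay 5 of the 20, beside 664 (21.3%) of all desert peaks. Among all peaks beyond 1000 kb, the strongest after the Ncam2 and Pcdh20-Pcdh9 sites lay between Got2 and the cadherin gene Cdh8 (signal 258, at 1509 kb) and between Stim2 and the protocadherin gene Pcdh7 (253, at 1794 kb). Both had replicate 1 signals of 177 to 178 and replicate 2 signals of 74.3 to 76.6, and both were in the conservative set.

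Desert peaks were supported by the conservative set slightly less often than other peaks. The conservative set overlapped 1711 of them (54.9%, exact interval 53.1 to 56.6%), against 57.1% of all other peaks and 58.6% of intergenic peaks 10 to 100 kb from a TSS, beside 56.7% of all optimal peaks. Both differences passed Fisher's exact test (two-sided, Benjamini-Hochberg over 6 tests), with an odds ratio of 0.912 (95% interval 0.843 to 0.987, adjusted p = 0.0454) against all others and 0.857 (0.779 to 0.943, adjusted p = 0.0101) against the intergenic peaks. When both ends of every gene counted as a TSS, neither passed Fisher's exact test (adjusted p = 0.129 and 0.0502), and when only peaks at or below the median signal were compared, a setting added after seeing the data, neither passed either (odds ratios 0.854 and 0.842, adjusted p = 0.0547 for both). Among peaks above the median signal both differences were called by the same Fisher's exact test, with odds ratios of 0.758 (adjusted p = 0.000910) against all others and 0.676 (adjusted p = 0.000253) against the intergenic peaks. The desert share was higher than that of the rest of the same chromosome on 5 of 20 chromosomes.

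Overlap by the 15891 highest regions of both replicates held for 1524 desert peaks (48.9%), against 50.8% of all other peaks and 51.9% of the intergenic peaks, beside 50.4% of the whole set. This was called against the intergenic peaks (odds ratio 0.888, 95% interval 0.807 to 0.975, adjusted p = 0.0419) and not against all others (odds ratio 0.926, 0.856 to 1.00, adjusted p = 0.0692) in the same two-sided Fisher's exact test. The call against the intergenic peaks was lost with both gene ends as TSS (odds ratio 0.891, adjusted p = 0.0522, Fisher's exact test) and with the 8000 highest regions per replicate (0.968, adjusted p = 0.563). The replicates moved in opposite directions. Replicate 1 overlapped 88.4% of desert peaks and 85.9% of all other peaks (86.4% of the set), while replicate 2 overlapped 52.4% of desert peaks and 55.2% of all other peaks (54.6% of the set). On replicate 1 alone the odds ratio was 1.25 (adjusted p = 0.000720), and on replicate 2 alone it was 0.894 (adjusted p = 0.0106), each against all others by the same Fisher's exact test. Against the intergenic peaks the odds ratio was 1.16 on replicate 1 alone (adjusted p = 0.0451) and 0.868 on replicate 2 alone (adjusted p = 0.0103), both by Fisher's exact test.

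The replicate lists also differed in their signals for desert peaks. In the 2607 desert peaks overlapped by a region in both relaxed lists, replicate 2 signal over replicate 1 signal had a median of 0.314 (quartiles 0.232 and 0.424), against 0.343 (0.251 and 0.472) in 10823 other peaks. The optimal-set signal was close to the sum of the replicate values, with a median ratio of 1.00 in desert peaks and in other peaks. Spearman's rho between the replicate signals across peaks was 0.691 for desert peaks and 0.683 for other peaks, given as a description because the peaks share their libraries. Peaks supported by replicate 1 only made up 1232 of the desert peaks (39.5%) and 35.1% of all others. Replicate 2 alone supported 109 desert peaks (3.50%), and 253 (8.11%) were among the top regions of neither replicate, against 9.75% of all others.

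Support rose steeply with signal. Replicate support is set by rank on the replicate signals, whose sum was close to the optimal-set signal. The rise therefore follows in part from how support was defined. The optimal set was cut into 5 signal classes of about equal size, from class 1 with the lowest signal to class 5. In class 1, 13.7% of desert peaks were in the conservative set, against 12.6% of other peaks. In classes 2, 3 and 4 the desert shares were 25.6%, 52.4% and 79.5%, against 31.5%, 59.4% and 84.4% in other peaks. In class 5 the shares were 98.6% of desert peaks and 99.1% of other peaks. Replicate 2 overlapped 42.3% of desert peaks in class 3, against 50.4% of other peaks, while replicate 1 overlapped 99.2% of desert peaks and 99.6% of other peaks.

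**Figure D2:**
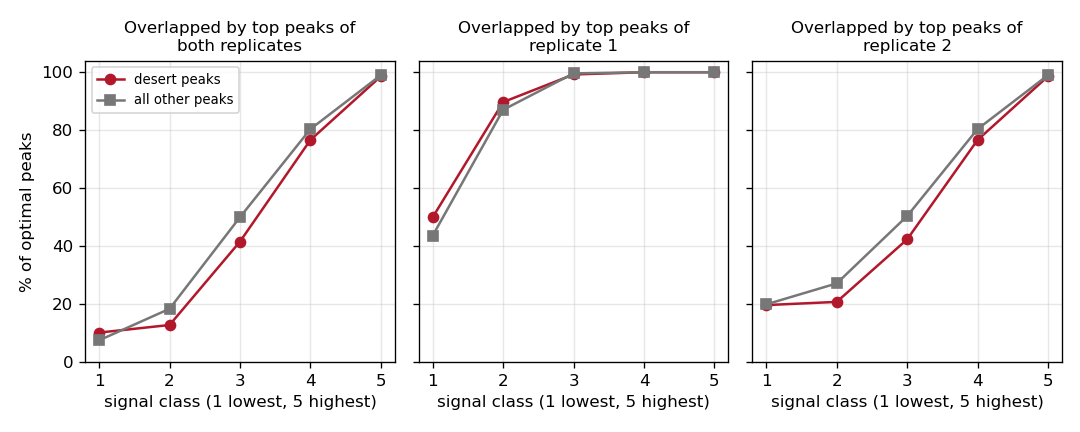
Percentage of desert peaks (red) and of all other optimal peaks (grey) overlapped by the top regions of both replicates, replicate 1 and replicate 2, by class of the authors' signal (1 lowest, 5 highest). In class 3, replicate 2 overlapped 42.3% of desert peaks and 50.4% of other peaks.

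By distance, conservative support was 55.7% at 100 to 250 kb, 54.1% at 250 to 500 kb, 51.8% at 500 to 1000 kb and 59.4% beyond 1000 kb, with exact intervals of 53.2 to 58.2%, 50.7 to 57.4%, 47.2 to 56.3% and 51.9 to 66.5%. These intervals overlap, so no order of the distance classes was resolved.

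Desert peaks lay in intervals between neighbouring coding genes, and those intervals differed widely in size and content. Of 2029 intervals with eligible sequence, 1021 (50.3%) held at least 1 desert peak, and 6 further peaks lay beyond the last coding gene of a chromosome. A single desert peak was found in 363 intervals, 2 to 4 in 449, and 5 or more in 209. The last class held 1543 peaks, 49.5% of the total. Occupied intervals had a median length of 544 kb and empty ones of 218 kb.

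Longer intervals were more often occupied but less densely. A desert peak was present in 34.1% of intervals up to 500 kb, 80.6% of those of 500 to 1000 kb, 90.1% of those of 1000 to 2000 kb and 98.7% of longer ones. Density ran the other way, at 5.81, 4.53, 3.43 and 2.29 desert peaks per eligible Mb. The nearest neighbouring peak of a desert peak was at a median of 41.1 kb, against 24.8 kb for other peaks, and 28.9% of desert peaks had a neighbour within 10 kb, against 33.5% of other peaks.

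The interval with the most desert peaks ran between Celf4, an RNA-binding protein gene, and Pik3c3, a phosphoinositide kinase gene, on chromosome 18. It was 4511 kb long and held 19 peaks, 12 of them conservative, with a highest signal of 221. Its count includes overlapping pairs with signals of 22.4 and 8.43 and of 105 and 29.9. The next interval includes such a pair with signals of 92.4 and 11.9. The lead of Celf4-Pik3c3 therefore depends on how overlapping regions are counted. Nmbr-Cited2 followed with 18 peaks in 2952 kb, and the highest of them, with a signal of 297 (210 in replicate 1, 88.3 in replicate 2), stood 100.2 kb from Cited2, a transcriptional co-regulator. Ythdf3-Cypt12 held 16 peaks in 1731 kb with a highest signal of 305. Tle4-Psat1 held 14 in 1307 kb, and Enc1-Arhgef28, Gm4868-Tmem132c, Igfbp3-Tns3 and Cfap20dc-Fhit held 13 each, as did Olfm4-Pcdh17, Pcdh7-G6pd2 and Cd83-Jarid2 with lower top signals.

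With every listed peak counted, the densest of these 10 was 1810013L24Rik-Grin2a on chromosome 16, which ends at an NMDA receptor subunit gene. It held 15 peaks in 709 kb, 23.5 per eligible Mb, and 10 of them were conservative. Its peaks stood 225 to 572 kb from the left gene, and the highest had a signal of 384 (259 in replicate 1, 127 in replicate 2). The count includes overlapping regions, with signals of 126, 41.3 and 20.4, each taken as a separate conservative peak. Enc1-Arhgef28 reached a similar 23.3 per eligible Mb, and its count includes an overlapping pair with signals of 41.2 and 17.6. The order of these intervals therefore depends on how overlapping regions are counted. By contrast Pcdh20-Pcdh9, the longest occupied interval at 4542 kb, also held 15 peaks but at 3.38 per eligible Mb. The next longest intervals apart from Celf4-Pik3c3 were Olfm4-Pcdh17 (13 peaks in 4420 kb), Cntnap5b-Cdh20 (11 in 4278 kb) and Tenm3-Aga (6 in 3989 kb), each with a neuronal adhesion gene at a border.

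**Figure D3:**
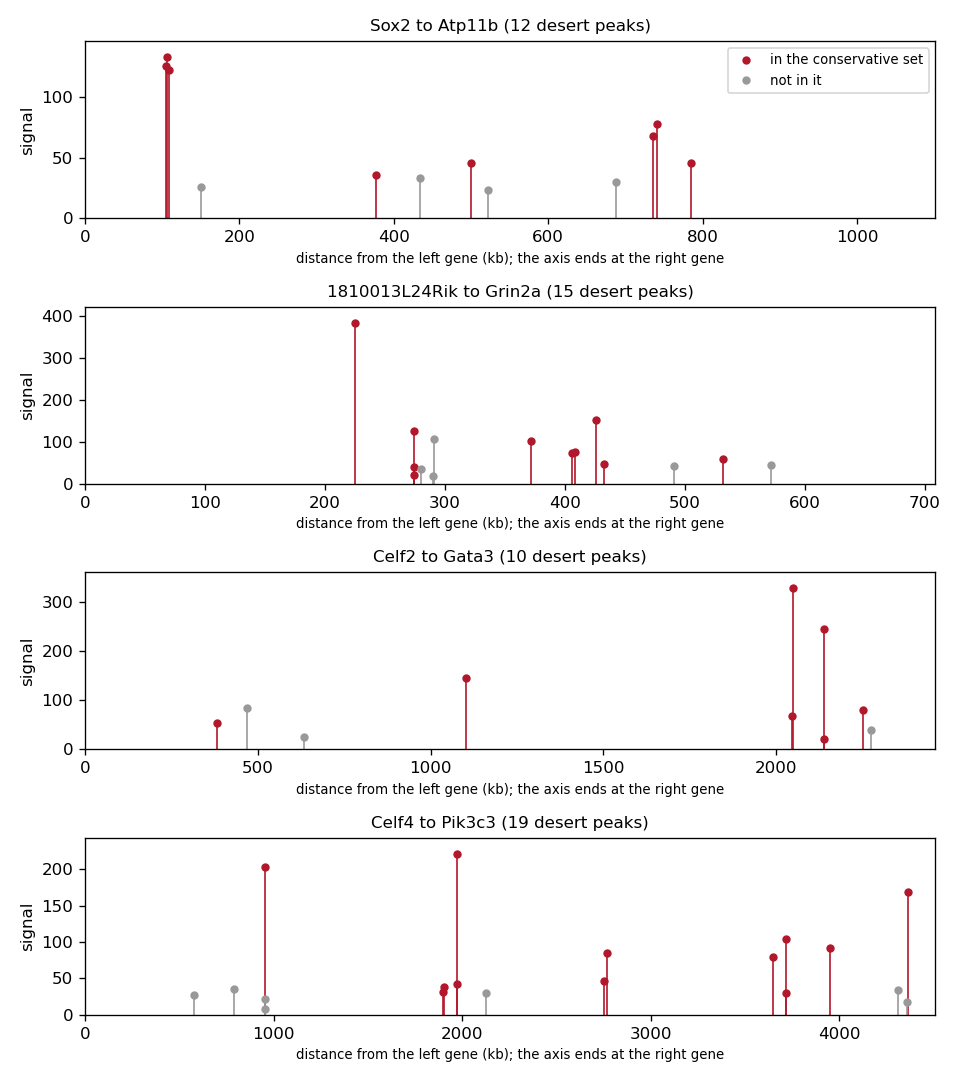
Signal of each desert peak (vertical axis, scale not stated) against its distance from the left gene in kb, for 4 intervals drawn over their whole length, with peaks of the conservative set in red and others in grey. Next to Sox2, 3 conservative peaks with signals of 122 to 132 stand 104 to 109 kb from the gene, and no other peak of that interval exceeds 78.0.

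Listed developmental regulators were more common at the borders of occupied intervals than among coding genes at large. They made up 148 of 1799 border genes (8.23%), against 48 of 914 (5.25%) at empty intervals of over 200 kb and 2.12% of all coding genes. The list holds 457 measured genes, of which 32.4% stood at an occupied border, against 8.36% of all coding genes. Here and in the lists below, a gene beside both an occupied and an empty interval counted only at the occupied one. Occupied intervals had no lower limit of length (shortest 3.51 kb), so occupied and empty borders were not defined alike. Long intervals are more often occupied, so the border counts move with length, and the part of length in them was not tested. By class, 40 homeobox genes, 38 genes in a mixed class of zinc finger and other factors, 28 signalling genes, 10 nuclear receptors, 10 basic helix-loop-helix genes, 8 SOX genes, 6 forkhead genes, 6 GATA and T-box genes and 2 PAX genes stood at occupied borders.

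Within each size class, intervals with a listed regulator at a border held desert peaks at a higher density. The densities were 6.56 per eligible Mb against 5.70 in other intervals up to 500 kb, 4.73 against 4.48 at 500 to 1000 kb, 3.99 against 3.32 at 1000 to 2000 kb, and 3.23 against 2.22 above 2000 kb, where only 6 regulator intervals occur. The classes did not equalise length. In the same order, median lengths of regulator and other intervals were 247 and 230 kb, 658 and 677 kb, 1208 and 1369 kb, and 2512 and 2808 kb. The part of length in the densities was not tested. Conservative support was 58.1% for the 532 desert peaks of regulator intervals and 54.3% for the 2580 of other intervals, with median signals of 41.9 and 41.1. No test was made on these counts, since the list was written with earlier results of these data known.

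**Figure D4:**
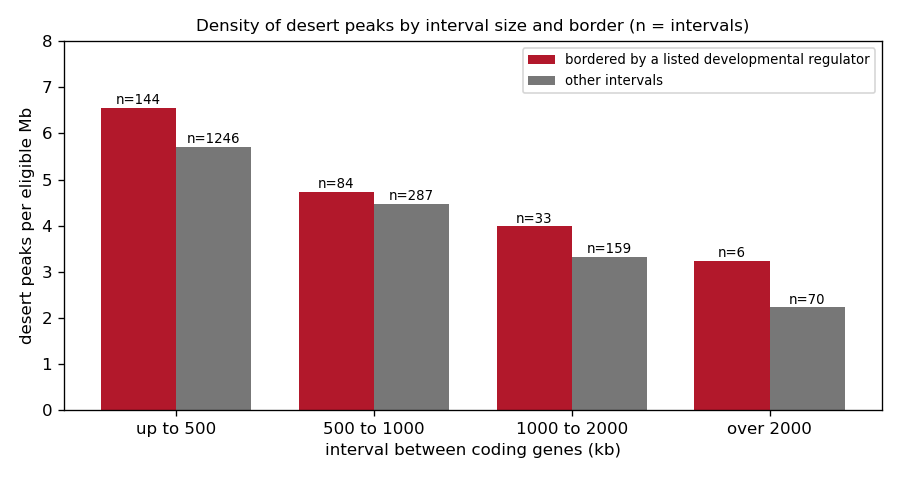
Desert peaks per Mb of eligible sequence (vertical axis) by length of the interval (horizontal axis, kb), for intervals bordered by a listed developmental regulator (red) and other intervals (grey), with the number of intervals above each bar. Red bars are higher in all 4 size classes, from 6.56 against 5.70 in the shortest to 3.23 against 2.22 in the longest.

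Of the 148 regulators, 46 had 5 or more desert peaks in adjacent intervals, 73 had 2 to 4 and 29 had 1. A peak was counted for every listed regulator at a border of its interval, even where another gene's TSS lay nearer. At least 1 conservative peak was present for 130 of them, and a signal of 200 or more for 14. The 25 with the most peaks are described next, with ties at 7 peaks broken by the highest signal, which left out Eya1 (7 peaks, highest signal 52.7). For 24 of the 25 the highest peak was in the conservative set. The exception was Pou3f2, a neural POU factor gene, whose 7 peaks reached a signal of 70.6 (61.3 in replicate 1, 6.30 in replicate 2) and included no conservative peak.

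Sox2, a SOX factor that works with OCT4 in ES cells, had 15 desert peaks in the intervals on its 2 sides, 8 of them conservative. Downstream, 3 peaks stood at 107, 108 and 111 kb from its TSS with signals of 125, 132 and 122. The replicate 1 values of these peaks were 86.1, 107 and 90.2, and the replicate 2 values were 38.4, 26.6 and 30.7. The highest of them lies at chr3:34757967-34758181. A cluster of distal enhancers that drives Sox2 in mouse ES cells is known downstream of the gene at about this range. The other 9 peaks towards Atp11b had signals of 23.7 to 78.0, and the 3 peaks on the Dnajc19 side had 16.1 to 33.1, none of them conservative.

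Among genes of the pluripotent network, Nr5a2, a nuclear receptor of early embryos, had 9 desert peaks, 7 conservative, with a highest signal of 250.03 at 458 kb from its TSS. Tbx3, a T-box factor, had 7, of which 4 were conservative, with a highest signal of 102 at 703 kb. The Tbx3 interval is 905 kb long, and that peak lay nearer to its other border gene, Med13l. Outside the core pluripotency list, Sall1, a zinc finger gene of kidney and neural development, had 13, of which 9 were conservative. Its highest signal was 284 at 780 kb (230.2 in replicate 1, 56.1 in replicate 2). That peak lay nearer to the TSS of Tox3, at 525 kb. Sall3, also outside the core pluripotency list, had 7 with a highest signal of 142.

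Homeobox genes included the Iroquois cluster. Irx2 had 7 desert peaks, all of them conservative and all in both replicates, with a highest signal of 299 (230.1 in replicate 1, 70.4 in replicate 2) at chr13:73099427-73099819. Irx1 had 7, of which 5 were conservative, with a highest signal of 72.4. The interval between Irx1 and Irx2 is counted for both genes. The highest Irx2 peak lay 475 kb from the Irx2 TSS and 160 kb from that of Irx4. Nkx6-1, a gene of neural tube and pancreas patterning, had 10 with a highest signal of 124, Pou3f3 had 8 with 144, Zeb2 had 8 with 87.8 in an interval of 3697 kb, Meis1 had 7 with 103, and Pou3f1 had 7 with 60.7.

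In the Celf2-Gata3 interval of 2461 kb, 10 desert peaks were found, 7 of them conservative. The highest, at chr2:9445865-9446235, had a signal of 327 and stood 442 kb from the Gata3 TSS, and a second strong peak with a signal of 244 (163 in replicate 1, 78.6 in replicate 2) stood 352 kb from it. Sox9, a SOX factor of cartilage and testis, had 9 desert peaks with a highest signal of 177 at 178 kb. Tcf4 had 7 with the signal of 445 already described, and its highest peak stood 439 kb from its own TSS but nearer to that of Ccdc68.

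Among the other factors, Tle4, a Groucho family co-repressor, had 15 desert peaks, 9 of them conservative, with a highest signal of 165. That peak lay 898 kb from the Tle4 TSS and 429 kb from that of Psat1. Bcl11a, a zinc finger gene of blood and brain, had 11, of which 8 were conservative, with a highest signal of 90.6 at 2044 kb. That peak lay nearer to the other border gene, Fancl, in an interval of 2214 kb. Mef2c, a gene of muscle and neural development, had 8, of which 3 were conservative, with a highest signal of 204. The orphan nuclear receptor gene Nr2f2 had 8, also with 3 conservative, and a highest signal of 149. Etv1 had 7, of which 6 were conservative, with a highest signal of 166, and Trps1 had 7, of which 3 were conservative, with 64.2. The signalling genes were Nrg3 (10 peaks, highest signal 90.01), Inhba (9 peaks, 46.3) and Tgfb2 (7 peaks, 158).

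Neuronal adhesion and synapse genes were listed because many lie beside very long intervals. They made up 94 of the 1799 border genes (5.23%). The shares were 12 of 914 (1.31%) at empty intervals of over 200 kb and 0.562% of all coding genes. Long intervals are more often occupied, so the border share follows in part from how the list was chosen. It is not a result about these genes. Their intervals were long, with a median of 786 kb, and held 2.73 desert peaks per eligible Mb, against 3.88 over all intervals. By size, the density was 4.02 up to 500 kb, against 5.81 for all intervals of that size, and 4.06 against 4.53 at 500 to 1000 kb. It was 3.01 against 3.43 at 1000 to 2000 kb and 2.22 against 2.29 above 2000 kb.

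Chemoreceptor genes, which are arranged in large clusters, were scarce at occupied borders. They made up 5 of the 1799 border genes (0.278%), against 20 of 914 (2.19%) at empty intervals of over 200 kb and 6.86% of all coding genes. Of 2029 eligible intervals, 24 had a chemoreceptor gene at a border, and 22 of these were at most 500 kb long. They held 5 desert peaks in all 24, 1.06 per eligible Mb. Genes in clusters border few eligible intervals, so the border share follows in part from gene spacing. It is not a result about chemoreceptor genes, and the part of spacing was not tested.

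Core pluripotency genes numbered 10 among the border genes (0.556%), against 4 at empty intervals of over 200 kb (0.438%) and 0.149% of all coding genes. Besides Sox2, Nr5a2 and Tbx3 they were Myc (13 peaks, highest signal 188), Mycn (10, 175), Fbxo15 (3, 52.9), Klf5 (2, 225), Tet2 (2, 42.8), Zfp281 (1, 108) and Tfcp2l1 (1, 36.8), named because the count is small.

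Motifs were compared on mm9, where the same rule selected 2602 of 13340 series-level peaks (19.5%). The SOX site was found within 100 bp of the centre in 309 desert peaks (11.9%) and 9.34% of other peaks, beside 9.84% of all. The NANOG site was found in 107 desert peaks (4.11%) and 3.18% of other peaks, beside 3.36% of all. The KLF site was found in 46 desert peaks (1.77%) and 3.10% of other peaks, beside 2.84% of all. These 3 passed Fisher's exact test (two-sided, Benjamini-Hochberg over 6 motifs), with odds ratios of 1.31 (95% interval 1.14 to 1.50, adjusted p = 0.000402), 1.31 (1.05 to 1.63, adjusted p = 0.0420) and 0.562 (0.412 to 0.768, adjusted p = 0.000402).

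The other 3 motifs did not pass the same Fisher's exact test on the series-level list. The OCT octamer was found in 4.84% of desert peaks and 4.00% of others (4.17% of all, odds ratio 1.22, 95% interval 0.995 to 1.49, Fisher's exact adjusted p = 0.0943). On the replicate 1 list alone the octamer passed Fisher's exact test (odds ratio 1.27, adjusted p = 0.00704), and on the replicate 2 list alone it did not (1.26, adjusted p = 0.309). The ESRRB site was found in 7.42% of desert peaks and 7.71% of others (7.65% of all, odds ratio 0.959, 0.815 to 1.13), and the TCF and LEF site in 5.73% of desert peaks and 5.31% of others (5.39% of all, odds ratio 1.08, 0.900 to 1.30). At least 1 of the 6 motifs was found in 30.9% of desert peaks and 29.5% of other peaks.

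Base composition moved with these shares. The median GC content of the windows was 44.3% in desert peaks and 45.8% in other peaks. In windows at or below the median GC of all peaks, a split added after seeing the data, the KLF odds ratio was 0.846 and was not called (adjusted p = 0.619, Fisher's exact test), while the SOX odds ratio was 1.39 and called (adjusted p = 0.000689). In windows above it, the SOX odds ratio was 0.986 and not called (adjusted p = 0.95, Fisher's exact test), while the KLF odds ratio was 0.463 and called (adjusted p = 0.00193). Against intergenic mm9 peaks 10 to 100 kb from a TSS the KLF odds ratio was 0.685 and missed the threshold (adjusted p = 0.0741, Fisher's exact test). On the replicate 1 list alone the NANOG odds ratio was 1.14 (adjusted p = 0.246), and on the replicate 2 list alone it was 0.800 (adjusted p = 0.361, Fisher's exact test for both), so this call rests on the series-level list. The SOX and KLF sites were called on the replicate 1 list (odds ratios 1.20 and 0.572, adjusted p = 0.00495 and 1.15e-05, Fisher's exact test) and not on the replicate 2 list (1.18 and 0.764, adjusted p = 0.309 and 0.361).

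**Figure D5:**
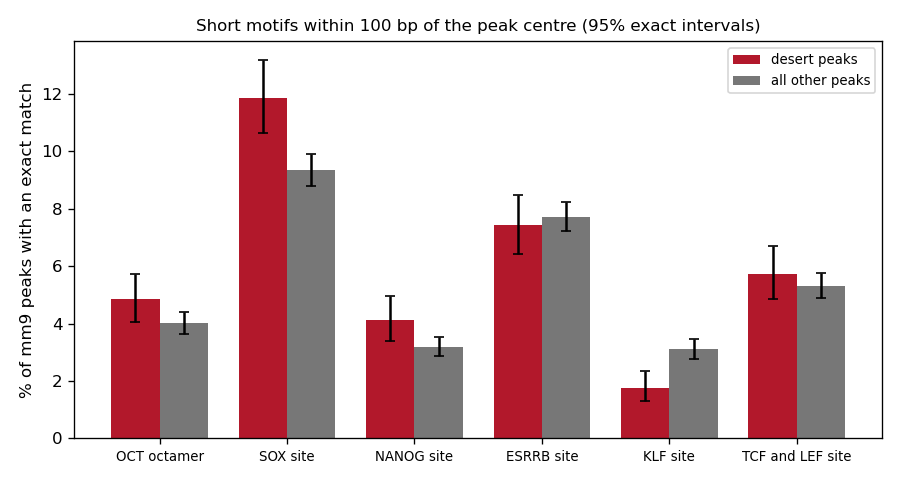
Percentage of mm9 desert peaks (red) and of all other mm9 peaks (grey) with an exact match to each motif within 100 bp of the centre, with 95% exact intervals that cover counting error. The SOX site was found in 11.9% against 9.34% and the KLF site in 1.77% against 3.10%.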

How the data were processed

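NANOG ChIP-seq of 2 biological replicates was used as peak lists. For mm10, the deposited lists are relaxed lists per replicate and for the pool, and the optimal and conservative sets that the authors derived from them by IDR (irreproducible discovery rate). Per peak, the deposited values are a signal of unstated scale, a −log10 q-value, a score and a summit offset. The deposited mm9 lists give a fold enrichment ratio, a −log10 p-value and a q-value per peak. The sources used here do not name the aligner, the peak caller, their versions or the IDR threshold. A control experiment named in the labels was not used here, and read depth is unknown.

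Positions of 21523 protein-coding genes came from a RefSeq GRCm38 table, after 108 genes with coordinates below 3 Mb were left out because no listed region starts below 2.99996 Mb. Strand came from RefSeq promoters for 17274 genes and an mm9 annotation for 3989, and for the other 260 both ends counted as a TSS. Coordinates are 1-based. Support meant 1 bp of overlap with the conservative set or with the 15891 highest regions of a replicate. Overlapping peaks can therefore draw support from the same region. Eligible sequence is the intergenic sequence that meets the distance rule. On mm9 the peak's midpoint was used, and sequence came from the mm9 reference genome. Comparisons used Fisher's exact test, two-sided, with Benjamini-Hochberg adjustment and a call at an adjusted p under 0.05, tested on simulated data. Shares have exact Clopper-Pearson intervals and odds ratios have normal limits set on their logarithm, both at 95% and both covering counting error only. Tests ran in SciPy 1.17.1 and statsmodels 0.14.6 under Python 3.11.15, tables were handled with pandas 2.3.3 and NumPy 2.4.6, and plots were drawn with matplotlib 3.10.9.

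The text names border genes of the 20 strongest desert peaks, the 10 intervals with the most peaks, the 5 longest occupied intervals and the 25 listed regulators with the most desert peaks, with ties broken by the highest signal. Other genes were named after their values were seen. Members and gene lists were chosen with earlier results of these data known.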

Additional observations from a re-analysis of the deposited data

How the results depend on the processing

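The small differences in support depend on the settings, and the causes were not tested. No paired analysis was possible because there is a single group of 2 replicates. Conservative support could not be recomputed without a replicate. Desert peaks made up 19.7% of the set, but 27.8% with a limit of 50 kb, 9.70% with 250 kb, 4.19% with 500 kb, 16.2% with both gene ends as TSS, 19.0% of the conservative set, and 17.2 to 19.9% of the top regions of single replicates. Against background, the odds ratio of 0.971 turned to 1.03 beyond 500 kb, 1.08 against the middle of the relaxed list (adjusted p = 0.000763, Fisher's exact test) and 1.01 for peaks above the median signal. It was 0.931 for the conservative set (adjusted p = 0.00894, Fisher's exact test) and 0.823 to 0.984 with 1 replicate left out, called without replicate 1 (0.823) and not without replicate 2. With both gene ends as TSS, conservative support had odds ratios of 0.932 against all others and 0.877 against intergenic peaks, and both-replicate support 0.891 against intergenic peaks, all 3 no longer called. Both-replicate support against all others was called with summits within 100 bp (0.910) or 50% mutual overlap (0.902), and turned to 1.03 with the 8000 highest regions per replicate, where the value against intergenic peaks was 0.968 and not called. With 1 replicate left out it ran from 0.894 to 1.25 against all others and from 0.868 to 1.16 against intergenic peaks, and the signal comparison from 0.972 to 1.19 and from 0.901 to 1.13. Both signal comparisons were called without replicate 2 and reversed without replicate 1. The signal comparison with intergenic peaks turned to 0.989 at the upper quartile. Among settings added after seeing the data, peaks at or below the median signal gave conservative odds ratios of 0.854 and 0.842 and a both-replicate ratio of 0.858 against intergenic peaks, none called, and peaks above it gave a called both-replicate ratio of 0.784 against all others.

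For motifs, leaving out 1 replicate gave odds ratios of 1.18 to 1.20 for the SOX site, 0.800 to 1.14 for the NANOG site, 0.572 to 0.764 for the KLF site and 1.26 to 1.27 for the OCT octamer. The SOX and KLF calls were lost without replicate 1, the NANOG call was lost without either replicate, and the OCT octamer was called without replicate 2. The NANOG site was not called within 50 bp (1.25) or for enrichment above the median (1.15), where the SOX site (1.21) was not called and the ESRRB site turned to 1.02. By the split on GC added after seeing the data, windows at or below the median gave 1.37 for the NANOG site, 0.846 for the KLF site and 0.932 for the TCF and LEF site, and windows above it gave 0.986 for the SOX site, 1.19 for the NANOG site and 1.23 for the ESRRB site. Against intergenic peaks, also added, the KLF site gave 0.685 and the ESRRB site 1.01. In all, 64 tested alternatives kept direction and call, 6 shares stayed within their error, 17 lost the call, 9 gained it, 15 reversed and 6 shares moved.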

Other observations

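Some long intervals had no NANOG desert peak, while peaks within 100 kb of their border genes were not counted. The longest intervals without a desert peak ran between Epha6, an ephrin receptor gene, and Nsun3 (2122 kb), between Tlr4 and Brinp1 (1915 kb) and between 4933402E13Rik and Gm6760 on the X chromosome (1859 kb). A listed regulator bordered the Kcnj3-Nr4a2 interval (1509 kb) and the Gm34521-Pou3f4 interval on the X chromosome (1256 kb), neither of which held a desert peak. These intervals were named after their values were seen.

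The conservative set held 1787 desert peaks of 9400 (19.0%), and 78 of them overlapped no peak of the optimal set. Those 78 were weak, with a median conservative-set signal of 27.1 and a maximum of 53.7. They made up 4.36% of conservative desert peaks, against 4.41% of the other conservative peaks.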
